A study of Mus musculus with 13 samples.

Results

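The 10 genes described here belong to the immediate-early response: the nuclear receptor genes *Nr4a1*, *Nr4a2*, and *Nr4a3*, the zinc finger genes *Egr1*, *Egr2*, and *Egr3*, the genes *Ier2*, *Ier3*, and *Ier5*, and *Dusp1*. They were taken by name from a table of 54838 genes, and all 10 passed the filter on low counts that left 17795 genes for testing. RNA was measured in Lin-cKit+ bone marrow cells, a fraction rich in hematopoietic stem and progenitor cells (HSPCs), of 13 mice. The 3 control mice carried Mx1-Cre, a recombinase driven by an interferon-inducible promoter, and no mutant allele. The 3 p53mut mice carried in addition 1 p53 R172H allele, the 3 NrasG12D mice 1 mutant Nras allele, and the 4 NPmut mice both alleles. Mx1-Cre was therefore common to all groups, and it is active in blood cells and in other interferon-responsive tissues. Control and single-mutant mice had received 3 intraperitoneal injections of 100 μg pI-pC, an inducer of interferon, from an age of about 6 weeks. NPmut mice had received none and were moribund with leukemia when sampled, and the other groups were age-matched to them. Genotype, injection, and stage of disease cannot be told apart in any comparison with NPmut mice.

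Immediate-early genes are transcribed within minutes of a stimulus from factors that a resting cell already holds, such as SRF with its partners and CREB, and many of their messages are short-lived. Growth factors and cytokines reach them largely through the ERK cascade, which oncogenic RAS feeds. NR4A proteins are nuclear receptors that act without a known hormone and restrain the proliferation of hematopoietic stem cells, and loss of *Nr4a1* and *Nr4a3* leads to myeloid leukemia in mice. EGR proteins are zinc finger activators, EGR1 being linked to stem cell quiescence and, with EGR2, to monocyte and macrophage differentiation. *Dusp1* encodes a phosphatase that switches off MAP kinases, *Ier3* a stress and survival protein, and *Ier2* and *Ier5* related nuclear proteins. These genes also respond to the handling of living cells, such as enzymatic digestion or sorting.

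The sequences before the start of 5 of the genes are shown because they hold the DNA elements through which CREB and SRF are known to act. RefSeq promoter entries (GRCm38.p6) were at hand for 7 of the 10 genes, the exceptions being *Egr1*, *Egr3*, and *Ier2*. The 250 bases before each RefSeq start were searched on both strands for the half-site of the cyclic AMP response element (CRE), TGACG, for the full CRE, TGACGTCA, which holds 2 half-sites, and for the CArG box, to which SRF binds. The search also covered the EGR element, GCGTGGGCG, its GC-rich form, GCGGGGGCG, the NBRE, AAAGGTCA, and the TATA box, TATAAA. Each sequence runs 5′ to 3′ on the strand of its gene, up to the start or to the first base of an exon annotated in GENCODE M21. Capitals mark CRE half-sites (TGACG, or CGTCA where the match is on the other strand) in the first 4 sequences and the CArG box in the sequence of *Egr2*.
Nr4a1: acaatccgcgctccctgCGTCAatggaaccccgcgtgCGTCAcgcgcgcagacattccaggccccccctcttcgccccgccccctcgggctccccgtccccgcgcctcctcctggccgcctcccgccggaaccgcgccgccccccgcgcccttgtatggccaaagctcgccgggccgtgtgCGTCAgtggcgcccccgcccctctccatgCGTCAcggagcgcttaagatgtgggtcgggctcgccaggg
Nr4a2: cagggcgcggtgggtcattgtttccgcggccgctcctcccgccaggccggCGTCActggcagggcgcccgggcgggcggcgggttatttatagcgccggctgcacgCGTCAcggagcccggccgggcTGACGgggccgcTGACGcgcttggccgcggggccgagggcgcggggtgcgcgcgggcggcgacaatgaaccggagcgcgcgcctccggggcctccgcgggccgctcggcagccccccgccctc
Nr4a3: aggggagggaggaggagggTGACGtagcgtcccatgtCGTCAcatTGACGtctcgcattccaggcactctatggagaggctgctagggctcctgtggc
Dusp1: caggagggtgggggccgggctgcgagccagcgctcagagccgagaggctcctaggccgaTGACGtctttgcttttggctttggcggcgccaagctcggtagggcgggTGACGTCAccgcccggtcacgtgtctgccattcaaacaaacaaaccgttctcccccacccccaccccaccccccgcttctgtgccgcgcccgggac
Egr2: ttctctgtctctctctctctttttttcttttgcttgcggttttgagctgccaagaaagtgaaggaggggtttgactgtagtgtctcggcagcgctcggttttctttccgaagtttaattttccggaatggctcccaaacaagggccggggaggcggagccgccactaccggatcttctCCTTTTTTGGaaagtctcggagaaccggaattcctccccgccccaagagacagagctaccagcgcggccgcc
These are chr15:101266596-101266845 on the plus strand for *Nr4a1*, chr2:57124004-57124253 on the minus strand for *Nr4a2*, chr4:48045055-48045152 on the plus strand for *Nr4a3*, chr17:26508520-26508722 on the minus strand for *Dusp1*, and chr10:67537316-67537565 on the plus strand for *Egr2*. The windows of *Nr4a1*, *Dusp1*, and *Egr2* lie inside the GENCODE M21 spans of these genes, before an internal RefSeq start and not before the first base of the span.

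Each of the 3 NR4A genes had 4 CRE half-sites in its 250 bases, a number reached by 0.137% of the 32851 mouse promoter entries, of which 17.8% had at least 1. In *Nr4a3* the fourth half-site lay in annotated exon sequence and is not printed. *Dusp1* had 3 half-sites, of which 2 overlap as the full CRE, an element that 1.55% of entries held. A CArG box, present in 1.47% of entries, was found before 4 of the 5 RefSeq starts of *Egr2* and before no start of the other 6 genes. The windows of 3 of the 5 *Egr2* starts, other than the one printed, also held 2 CRE half-sites. *Ier3* and *Ier5* had neither a half-site nor a CArG box in these windows. Of the other motifs searched, *Nr4a1* held a GC-rich EGR element (2.57% of entries) and *Nr4a2* a TATA box (12.4% of entries). No window of the 7 genes held the EGR element or the NBRE. A match is a string of letters and not a measured binding site.

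**Figure D1:**
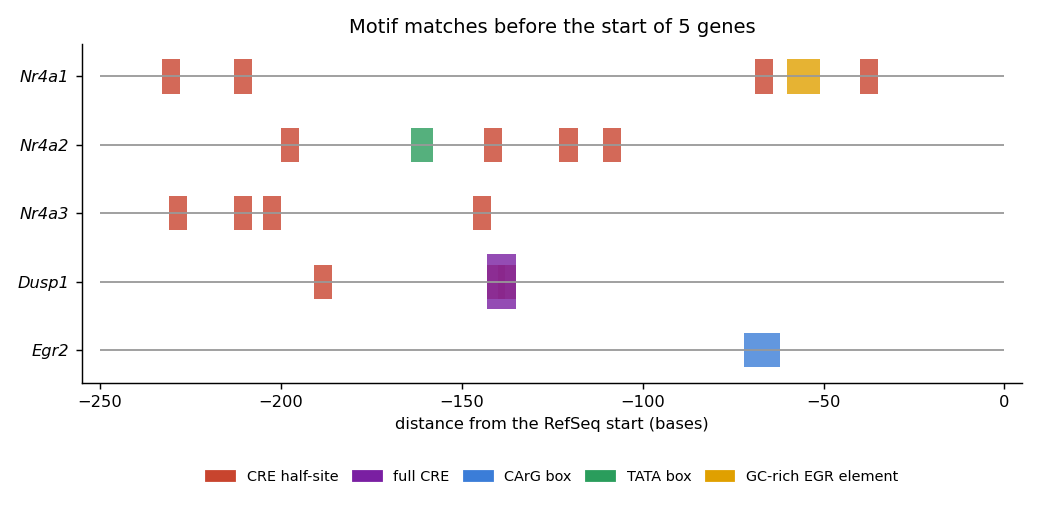
Motif matches in the 250 bases before one RefSeq start of 5 genes, with the distance from the start in bases on the x axis and 1 line per gene. *Nr4a1*, *Nr4a2*, and *Nr4a3* each show 4 CRE half-sites, and the window of *Egr2* drawn shows a CArG box alone, whereas 3 of its 5 windows also held 2 half-sites. *Nr4a1* also shows a GC-rich EGR element and *Nr4a2* a TATA box.

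Library totals ranged from 12576174 to 29124022 counts. *Kit*, the marker of the sorting gate, was at 503 to 566 CPM (counts scaled to a common library size with TMM factors) in control mice and at 287 to 449 CPM in NPmut mice. In bulk RNA, fewer cells of a type and less RNA per cell cannot be told apart. Of 13 monocyte and macrophage markers, 11 were tested and 4 were higher in NPmut than in control mice (*Csf1r*, *Cx3cr1*, *Ccr2*, and *Ms4a6c*), and their summed level was 244 to 264 CPM in control, 185 to 364 in p53mut, 222 to 315 in NrasG12D, and 497 to 1100 in NPmut mice. *Fcgr1*, *Ms4a7*, and *C1qb* of that list were at 0 in NPmut mouse 4. Other marker lists moved too. All 3 tested of 5 megakaryocyte markers (*Pf4*, *Itga2b*, and *Gp9*) were lower in NPmut mice, their list summing to 83.4 to 128 CPM in control and 10.9 to 54.2 CPM in NPmut mice, and of 8 HSPC markers *Gata2* and *Slamf1* were lower, at log2 fold changes of -1.64 and -2.999. Of the neutrophil markers 1 was higher, and of the mast cell and of the stromal and endothelial markers 1 and 2 were lower. The part of these cells in the results below was not tested.

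Levels of the 10 genes in control HSPCs spanned more than 2 orders of magnitude on the RPKM scale (counts scaled to exon length and library total). *Ier2* was highest at 21.6 ± 0.838 RPKM (SD, n = 3), followed by *Dusp1* at 6.22 ± 1.50, *Ier5* at 3.70 ± 0.506, *Egr1* at 3.66 ± 0.264, *Ier3* at 3.04 ± 0.329, and *Nr4a2* at 2.04 ± 0.270. *Nr4a1* was at 1.01 ± 0.383 RPKM, *Nr4a3* at 0.211 ± 0.0714, *Egr2* at 0.166 ± 0.123, and *Egr3* at 0.0579 ± 0.0315. Neighbors in this order overlapped between mice for *Ier5* and *Egr1*, for *Nr4a3* and *Egr2*, and for *Egr2* and *Egr3*, and the other neighbors did not overlap. For comparison, 1967 olfactory and vomeronasal receptor genes, which blood cells should not express, together had 0.0184 to 0.0340 RPKM in control mice, where *Egr3* had 0.0370 to 0.0941.

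In NPmut HSPCs, *Nr4a1* moved from the seventh to the second place of this order, at 28.5 ± 22.5 RPKM (SD, n = 4) below *Ier2* at 43.7 ± 13.05. *Egr1* stood at 14.9 ± 13.2 RPKM, *Dusp1* at 11.3 ± 7.66, *Ier3* at 7.94 ± 3.79, *Nr4a2* at 5.26 ± 4.46, *Ier5* at 4.42 ± 1.08, *Nr4a3* at 2.77 ± 3.30, *Egr3* at 1.67 ± 1.58, and *Egr2* at 0.260 ± 0.174. The SD of several of these levels is close to or above their mean, and the ranges of all neighbors in this order overlapped.

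**Figure D2:**
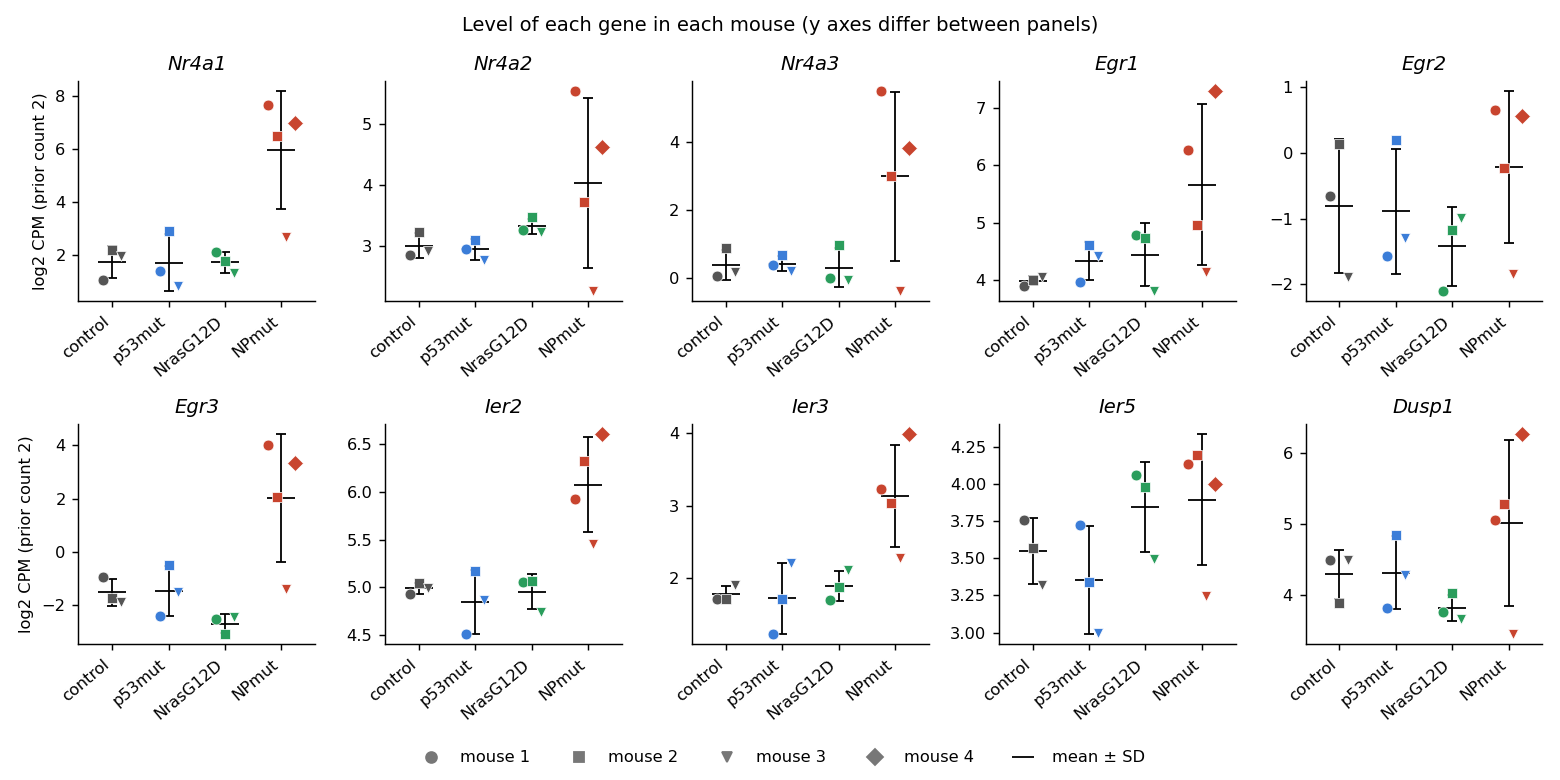
Level of each of the 10 genes in each mouse, as log2 CPM with a prior count of 2, by group (3 control, 3 p53mut, 3 NrasG12D, and 4 NPmut mice). Symbols stand for single mice and bars for the mean ± SD of a group, and NPmut mouse 3 (triangle) lies below the other NPmut mice in 10 of 10 panels.

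Whether 1 mutant allele alone moved these genes was asked by comparing each single mutant with control mice. In p53mut HSPCs, 0 of the 10 genes were called higher or lower, a call being an adjusted p under 0.05 with a fold change of at least 2 in edgeR's quasi-likelihood test with Benjamini-Hochberg adjustment (over all genes, 0% were called). No member had an unadjusted p under 0.05, DESeq2 called 0 of them, and the log2 fold changes ran from -0.18 for *Ier5* to 0.37 for *Egr1*. In NrasG12D HSPCs, 0 of the 10 genes were called as well, where 0.00562% of all genes were, with 0 at an unadjusted p under 0.05 and 0 called by DESeq2. Log2 fold changes there ran from -2.37 for *Egr3*, a gene with few counts, to 0.51 for *Egr1*. *Nr4a1*, for example, was at 2.50, 7.35, and 1.68 CPM in p53mut mice 1 to 3, at 4.16, 3.27, and 2.39 in NrasG12D mice, and at 1.95, 4.49, and 3.76 in control mice, so that the 3 groups overlapped. *Ier2*, the most abundant member, was at 22.7 to 36.0 CPM in p53mut, 26.8 to 33.4 in NrasG12D, and 30.5 to 32.9 in control mice.

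The precision of these comparisons differed between genes. For *Ier2* the 95% confidence interval of the log2 fold change was -0.62 to 0.39 in p53mut and -0.54 to 0.48 in NrasG12D mice, and for *Nr4a1* it was -2.21 to 2.52 and -2.42 to 2.32, which leaves room for changes of more than 4-fold. *Egr3* was counted 7, 3, and 3 times in control mice and 1, 0, and 1 times in NrasG12D mice, giving the one pair of groups without overlap (lower in NrasG12D mice, where 10.1% of all genes tested were lower without overlap). Its adjusted p was 0.765 in edgeR's quasi-likelihood test, and the receptor genes were lower in NrasG12D mice too, at 0.00678 to 0.00802 RPKM, beside 0 to 0.0150 for *Egr3*.

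Whether both alleles together moved the genes was asked by comparing moribund NPmut with control mice. Of the 10 genes, 5 were higher in NPmut HSPCs and 0 lower: *Nr4a1*, *Nr4a3*, *Egr3*, *Ier2*, and *Ier3*. *Egr3* passed the filter on low counts only through NPmut mice, and without it 4 genes were called. Over all genes tested, 2.32% were called higher and 3.69% lower. The log2 fold changes of the 10 genes ran from 0.38 to 4.94 with a median of 1.49, beside a median of 0.01 over all genes. The groups did not overlap, with NPmut mice higher, for 4 of the 10 genes (*Nr4a1*, *Egr1*, *Ier2*, and *Ier3*) and for 10.6% of all genes. When libraries were scaled by their totals alone, the median of all genes shifted to -0.11 and the calls over all genes from 413 higher and 656 lower to 310 higher and 788 lower, while the 5 genes called here remained the same.

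*Nr4a1* (chr15:101254269-101274795, plus strand) was at 198, 90.2, 6.26, and 125 CPM in NPmut mice 1 to 4, on a control mean of 3.40 ± 1.31 CPM (SD, n = 3). Mice 1, 2, and 4 were thus 58.2, 26.5, and 36.7 times above the control mean, whereas mouse 3 was 1.84 times above it and below p53mut mouse 2 at 7.35 CPM. The log2 fold change was 4.94 (SE 1.03, adjusted p = 0.0143 in edgeR's quasi-likelihood test). *Nr4a3* (chr4:48045153-48086447, plus strand) was at 45.6, 7.97, 0.642, and 14.2 CPM in NPmut mice 1 to 4 and at 0.917 to 1.72 CPM in control mice, and rose by 3.81 on the log2 scale (SE 1.01, adjusted p = 0.0333). Mouse 1 held the highest value and mouse 3 fell below every control mouse. *Nr4a2* (chr2:57106830-57124003, minus strand) was at 46.4, 13.1, 4.71, and 24.5 CPM in NPmut mice and at 7.11 to 9.35 CPM in control mice. Here too mice 1, 2, and 4 were above and mouse 3 below the control mice, and the log2 fold change of 1.47 (SE 0.54) did not pass the test (adjusted p = 0.106).

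Among the EGR genes, *Egr1* was at 76.7, 31.1, 17.5, and 156 CPM in NPmut mice 1 to 4 and at 14.8, 16.0, and 16.5 CPM in control mice. All 4 NPmut mice lay above the 3 control mice, mouse 3 by less than 1 CPM. On the RPKM scale, which uses library totals, mouse 3 was at 3.90 and fell below control mouse 3 at 3.94. Its log2 fold change of 2.15 (SE 0.63) just missed the threshold, with an adjusted p of 0.0503 in edgeR's quasi-likelihood test, and it was called by DESeq2 (6 members in all, beside 2.8% of all genes higher) and with a minimum of 10 counts in every library. *Egr3* (chr14:70077203-70082614, plus strand) had 322, 106, 5, and 118 counts in NPmut mice 1 to 4, or 16.3, 4.08, 0.268, and 9.998 CPM, beside 7, 3, and 3 counts in control mice. The 3 high mice stood apart from the other 10 libraries, and mouse 3 lay within the control range. Summed over each group, *Egr3* was 29.7 times higher in NPmut than in control mice (95% interval 17.2 to 56.1, for counting error only, on 551 and 13 counts), and the fitted log2 fold change was 4.92 (SE 1.07, adjusted p = 0.0113). The minimum of the filter, 0.598 CPM on library totals, was reached by 3 of 4 NPmut mice and by 0 of the other 9 mice, so that *Egr3* was tested because of the group in which it was high. *Egr2* (chr10:67535475-67542188, plus strand) stayed at 3 to 29 counts per NPmut library and 3 to 16 per control library, and its log2 fold change was 0.74 (SE 0.76, with an adjusted p of 0.586). It too reached the minimum of the filter mainly in NPmut mice (3 of 4, and 2 of the other 9).

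*Ier2* (chr8:84661331-84662852, minus strand) was at 60.4, 79.8, 43.7, and 97.0 CPM in NPmut mice 1 to 4, and the other 9 mice did not exceed 36.0 CPM. It was the member with the smallest adjusted p (0.00554 in edgeR's quasi-likelihood test), at a log2 fold change of 1.14 (SE 0.23). *Ier3* (chr17:35821684-35822923, plus strand) was at 9.24, 8.13, 4.71, and 15.8 CPM in NPmut mice and at most at 4.51 CPM in the other 9, and its log2 fold change was 1.50 (SE 0.35, with an adjusted p of 0.0136). *Ier2* and *Ier3* were the 2 members for which NPmut mouse 3 also lay above all 9 mice of the other groups. *Ier5* (chr1:155096361-155099636, minus strand) was at 17.5, 18.2, 9.37, and 15.9 CPM in NPmut mice and at 9.86 to 13.4 in control mice, and did not pass the test (log2 fold change 0.38, SE 0.24, adjusted p = 0.343). *Dusp1* (chr17:26505590-26562128, minus strand) was at 33.2, 38.8, 10.8, and 76.7 CPM in NPmut mice and at 14.6 to 22.3 CPM in control mice, and its log2 fold change was 1.00 (SE 0.48, with an adjusted p of 0.218). Mice 1, 2, and 4 again lay above and mouse 3 below the control mice. The annotated span of *Dusp1* overlaps exons of *Ergic1* on the opposite strand (20216 counts over all libraries), and the sources used here do not say whether strand was used in counting, so the reads of *Dusp1* are uncertain.

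**Figure D3:**
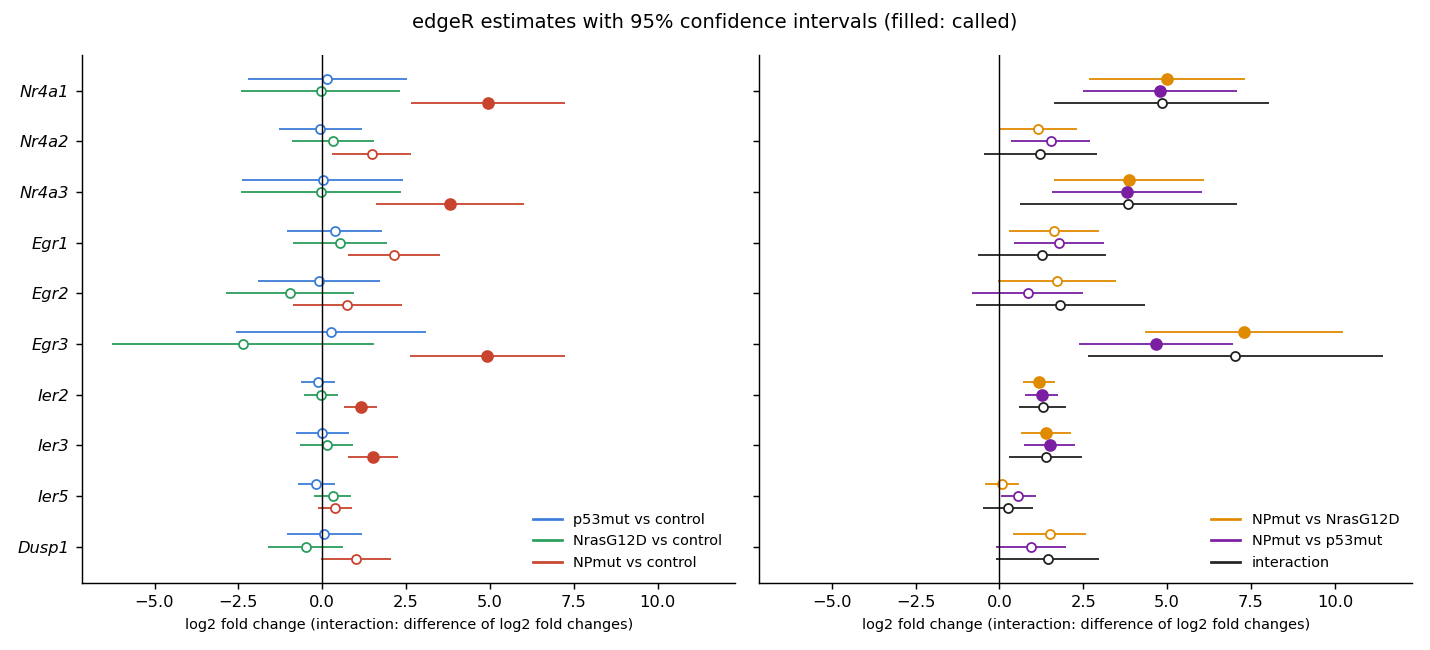
Log2 fold changes (points) with 95% confidence intervals (lines) from edgeR for each gene, filled where called. On the left, the single mutants are filled for no gene and run from -2.37 (*Egr3*) to 0.51 (*Egr1*), both in NrasG12D mice. NPmut against control is filled for 5 genes. On the right, NPmut mice are compared with each single mutant, and the interaction, the difference of log2 fold changes, is filled for none.

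The number of genes called in NPmut against control mice depended on single libraries. It was 8 of 10 without NPmut mouse 3, every member but *Egr2* and *Ier5*. It fell to 3 without NPmut mouse 1, 2, or 4, to 2 without control mouse 1 or 2, and to 1, *Ier2*, without control mouse 3. The share of all genes called higher, 2.32% with all mice, moved as well, to 2.81% without NPmut mouse 3, to 1.88%, 1.94%, and 2.43% without NPmut mice 1, 2, and 4, and to 1.75%, 1.60%, and 1.18% without control mice 1, 2, and 3. *Ier2* was called in 6 of these 7 fits, *Nr4a1* in 5, *Ier3* in 4, and *Nr4a3* in 2, while *Egr3* was called in 2 of the 4 fits in which it passed the filter. In all 7 the log2 fold change of *Nr4a1* stayed between 4.42 and 5.33 and that of *Ier2* between 0.94 and 1.31, with adjusted p-values up to 0.0704 and 0.0292. With the replicate number as a block, which leaves out NPmut mouse 4, 1 member (*Ier3*) was called.

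The 4 NPmut mice did not behave alike. Mouse 3 was the lowest of the 4 for 10 of the 10 genes, where it was lowest for 18.2% of all genes tested. Mouse 1 was highest for 5 genes, the 3 NR4A genes, *Egr2*, and *Egr3* (16.3% of all genes), mouse 4 for *Egr1*, *Ier2*, *Ier3*, and *Dusp1* (28.1%), and mouse 2 for *Ier5* (36.8%). With mouse 3, the lowest, set aside, mice 1, 2, and 4 all lay above each of the 9 other mice for 8 genes, the exceptions being *Egr2* and *Ier5*. The 8 include *Egr3*, which passed the filter only through NPmut mice. Mouse 3 lay above every control mouse for 4 genes (*Nr4a1*, *Egr1*, *Ier2*, and *Ier3*), within their range for *Egr2* and *Egr3*, and below every control mouse for *Nr4a2*, *Nr4a3*, *Ier5*, and *Dusp1*. The share over all genes was not counted for these positions of mouse 3, nor for those of mice 1, 2, and 4 above the other groups. Summed over the 10 genes, the level was 505, 292, 98.1, and 537 CPM in NPmut mice 1 to 4 and 95.1 to 96.6 CPM in control mice.

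Other measures were set beside this division. Monocyte and macrophage markers summed to 738, 1100, 546, and 497 CPM in NPmut mice 1 to 4, so that mouse 3 was above and mouse 4 was at the lowest value of the 4, while *Cd14*, an inducible member of that list picked after its values were seen, was at 15.5, 21.2, 0.589, and 8.05 CPM. Neutrophil markers summed to 135, 268, 30.7, and 301 CPM, lowest in mouse 3, and to 74.2 to 308 CPM in control mice. The library total of mouse 3 was 18659754 counts and its share of mitochondrial counts 10.05%, between the 9.57% to 12.3% of the other 3. *Xist*, also outside the rule for named genes, had 9 and 4 counts in NPmut mice 3 and 4 and 46639 and 38025 in mice 1 and 2, so the mouse with the lowest and the mouse with the highest sum of the 10 genes were in the same class, and with this class as a term the same 5 genes were called. The part of neutrophil-lineage cells in the division was not tested.

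**Figure D4:**
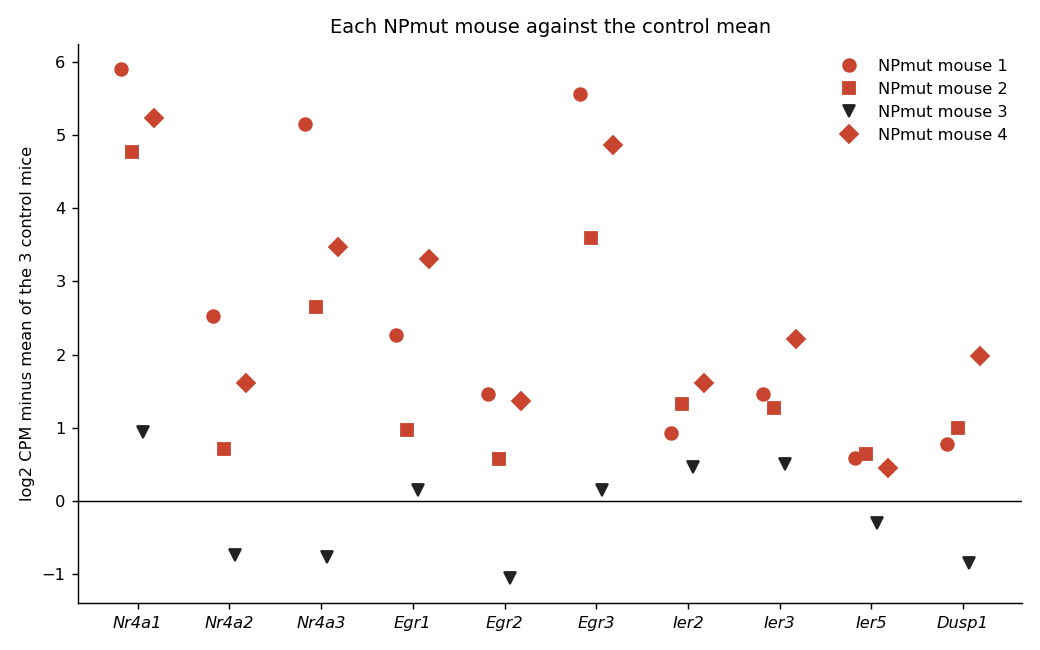
Difference of each NPmut mouse from the mean of the 3 control mice for the 10 genes, in log2 CPM with a prior count of 2. Mice 1, 2, and 4 (red) lie above 0 for every gene, and mouse 3 (black) lies lowest for every gene, from -1.04 for *Egr2* to 0.94 for *Nr4a1*.

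Compared with NrasG12D mice, NPmut mice had the same 5 genes higher (1.81% of all genes), with log2 fold changes of 4.99 for *Nr4a1*, 3.86 for *Nr4a3*, 7.29 for *Egr3*, 1.17 for *Ier2*, and 1.38 for *Ier3*. *Egr3* rests on 2 counts over the 3 NrasG12D libraries against 551, a ratio of 174 with a 95% interval of 47.8 to 1437 for counting error only. Compared with p53mut mice, the same 5 genes were higher (2.15% of all genes), with log2 fold changes of 4.79, 3.80, 4.66, 1.26, and 1.50. In both comparisons *Egr3* was tested because of the group in which it was high, having passed the filter only through NPmut mice. Without it *Nr4a1*, *Nr4a3*, *Ier2*, and *Ier3* remained called. *Egr1* had log2 fold changes of 1.63 against NrasG12D and 1.78 against p53mut mice and did not pass either test (adjusted p = 0.127 and 0.0979 in edgeR's quasi-likelihood test). NPmut mice lay above NrasG12D mice without overlap for 4 genes (*Nr4a1*, *Egr3*, *Ier2*, and *Ier3*, with 9.34% of all genes) and above p53mut mice for 2 (*Ier2* and *Ier3*, with 9.14%). These 3 comparisons share the NPmut mice and are not independent of each other. Without NPmut mouse 3, 8 members were called against each single mutant, and without NPmut mouse 1 or 2, 3 in each comparison. Without NPmut mouse 4 or any 1 of the NrasG12D mice, 2 were called against NrasG12D, and against p53mut mice 3 were called without NPmut mouse 4 and 1, 4, and 2 without p53mut mouse 1, 2, and 3. The shares of all genes called in these fits were not counted, so a general shift cannot be told from one of the members.

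Whether the effect of both alleles exceeded the sum of the single effects was tested as an interaction, the difference between NPmut and NrasG12D mice minus that between p53mut and control mice on the log2 scale. Only NPmut mice were uninjected and moribund, so injection and stage of disease do not cancel in this difference. It cannot be read as an effect of the alleles alone. Of the 10 genes, 0 were called by edgeR's quasi-likelihood test (1.34% of all genes were called in either direction), 5 had an unadjusted p under 0.05, and DESeq2 called 3 (*Nr4a1*, *Egr3*, and *Ier2*) and 3.46% of all genes. All 10 estimates were positive, but the share of positive estimates over all genes was not counted. *Egr3* was tested because of the group in which it was high, having passed the filter only through NPmut mice. Its estimate also rests on 2 counts over the NrasG12D libraries. Without *Egr3*, DESeq2 called *Nr4a1* and *Ier2*. *Ier2* came closest, at 1.29 (SE 0.33, adjusted p = 0.0599), followed by *Egr3* at 7.03 (SE 2.04, adjusted p = 0.101), *Nr4a1* at 4.84 (SE 1.44, adjusted p = 0.130), *Ier3* at 1.37 (SE 0.51, adjusted p = 0.193), and *Nr4a3* at 3.84 (SE 1.47, adjusted p = 0.225). *Ier2* was called without p53mut mouse 2 and without the filter on low counts, and 5 genes (*Nr4a1*, *Nr4a3*, *Egr3*, *Ier2*, and *Dusp1*) were called without NPmut mouse 3. The shares of all genes called in these fits were not counted.

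Over the 45 pairs of the 10 genes, Pearson's r of log2 CPM had a median of 0.78 (from 0.35 to 0.95, n = 13 libraries), and 0.72 for deviations from the group means. Over the 9 libraries without NPmut mice the median was 0.20, from -0.58 to 0.80. These correlations are descriptions, since 3 NPmut libraries hold most of the spread and the points share their groups and scaling. The genes most like *Nr4a1* over the 13 libraries, among 12967 genes whose log2 CPM averaged 1 or more, were *Dusp5* (r = 0.979), *Pmaip1* (0.972), and *Zfand2a* (0.969). *Pmaip1*, which encodes the pro-apoptotic protein NOXA, was at 47.4, 52.1, 3.59, and 41.9 CPM in NPmut mice 1 to 4 and at a mean of 2.36 CPM in control mice. *Egr1* was most like *Dusp2* (0.939), *Ndel1* (0.935), and *Tnfaip3* (0.926), the latter an inhibitor of NF-κB signaling. *Ier2* was most like *Junb* (0.962), *Ypel5* (0.962), and the anti-proliferative gene *Btg1* (0.955).

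The wider immediate-early program was described with lists written from general knowledge, but with earlier results of these data known. The numbers of genes called in these lists are therefore not independent of those results. Of 9 AP-1 genes, which encode the FOS, JUN, and related leucine zipper factors, 5 were higher in NPmut than in control mice and 0 lower (2.32% of all genes were higher), with a median log2 fold change of 1.58. The 4 called genes with the largest log2 fold changes were *Atf3* (4.46), *Fos* (3.38), *Maff* (2.80), and *Fosl2* (1.58), and *Fosb* at 2.39 did not pass the test (adjusted p = 0.123). *Atf3* reached the minimum of the filter in 3 NPmut mice and in 2 of the other 9, so that it was tested because of the group in which it was high. Without it *Fos*, *Maff*, *Fosl2*, and *Junb* remained called. *Fos* was at 186, 218, 14.6, and 392 CPM in NPmut mice 1 to 4 and at 16.9 to 23.9 CPM in control mice, and mouse 3 was the lowest NPmut mouse for 9 of the 9 genes. The number called was 8 without NPmut mouse 3, 3 without NPmut mouse 1 or 2, and 2 without NPmut mouse 4 or any 1 of the control mice.

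Of 34 other immediate-early genes, 31 were tested, 17 were higher, and 0 were lower, with a median log2 fold change of 1.84, beside the same 2.32% of all genes. *Cxcl2* (4.53), *Ccl3* (3.06), and *Il1b* (2.77), which encode 2 chemokines and a cytokine of myeloid cells, and *Klf4* (2.85), which encodes a factor of monocyte differentiation, were the 4 called genes with the largest log2 fold changes. *Ptgs2* (3.50) and *Plk2* (3.37) did not pass the test (adjusted p = 0.104 and 0.0517). *Klf4* was at 44.4, 50.3, 20.9, and 49.9 CPM in NPmut mice and at 3.84 to 7.20 CPM in control mice, whereas *Cxcl2* was at 2.32, 2.39, 0, and 2.97 CPM and at 0.0508 to 0.115 CPM. *Cxcl2* passed the filter only through 3 NPmut mice, so its call rests on the group in which it was high. Mouse 3 was lowest for 24 of the 31 genes. The number called was 22 without NPmut mouse 3, 13, 11, and 12 without NPmut mice 1, 2, and 4, and 9, 7, and 4 without control mice 1, 2, and 3, in fits where the share of all genes higher was 1.18% to 2.81%.

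Of 9 other MAP kinase phosphatase genes, 3 were higher, *Dusp5* (2.59), *Dusp10* (1.07), and *Dusp2* (1.07), and 0 were lower, beside 2.32% of all genes higher. Mouse 3 was the lowest NPmut mouse for only 4 of the 9 genes, unlike in the AP-1 list. The number called was 1 without control mouse 3, 2 without control mouse 2 or NPmut mouse 4, and 4 without NPmut mouse 1, against 1.18% of all genes higher without control mouse 3 and 1.88% without NPmut mouse 1. Of 18 genes for upstream factors and partners of these genes, such as CREB, SRF, and the NAB corepressors of EGR proteins, 0 were called by edgeR or DESeq2. Of 12 heat shock genes, 11 were tested, 0 were higher, and *Hsph1* was lower (log2 fold change -1.28), a call lost without control mouse 1. Heat shock genes, which also respond to stress of cells, summed to 5467 to 6749 CPM in control and 5866 to 8278 CPM in NPmut mice, most of it from *Hsp90ab1* (a mean of 4514 and 5202 CPM). The strongly inducible *Hspa1a* and *Hspa1b*, picked after their values were seen, were at 2.46 to 6.02 and 6.15 to 8.77 CPM in control mice and at 0.214 to 2.00 and 0.589 to 1.96 CPM in NPmut mice. Neither passed the test (adjusted p = 0.315 and 0.105).

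**Figure D5:**
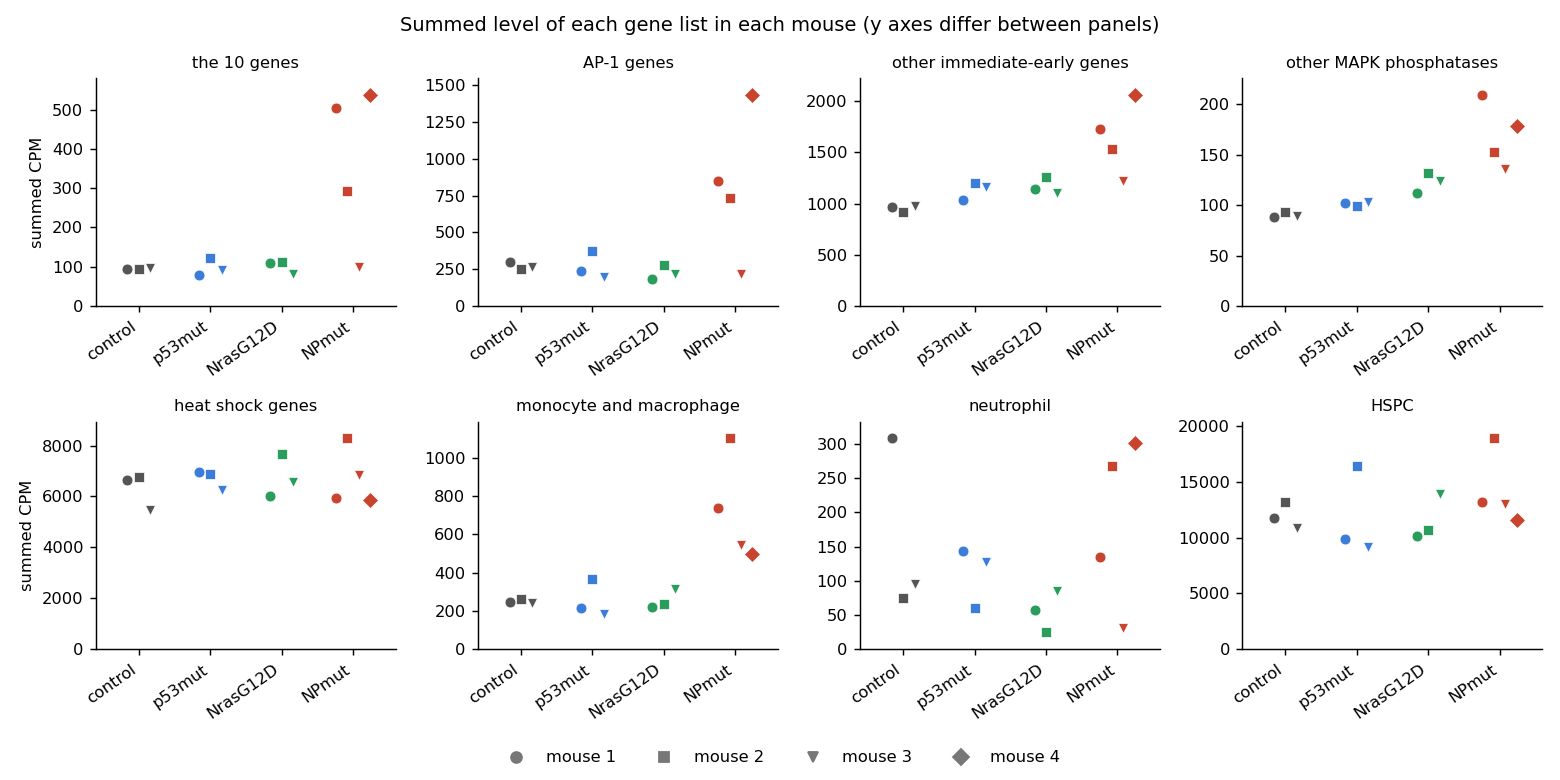
Summed CPM of the 10 genes and of 7 other gene lists in each mouse, by group, on axes that start at 0. The 10 genes and the AP-1 genes are high in NPmut mice 1, 2, and 4 and not in mouse 3, whereas the monocyte and macrophage markers are above every other mouse in all 4 NPmut mice.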

How the data were processed

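RNA of 50000 sorted cells of each mouse was made into libraries with the SMARTer Stranded Total RNA-Seq Pico v1 kit. The authors deposited raw counts per gene, 1 column per mouse, for 54838 genes, of which 54809 identifiers were found in GENCODE M21. Per the submitters' processing notes, the reads were aligned with STAR 2.6.1d to GRCm38.p6, and R 3.6.1 and DESeq2 1.26.0 were used. The counting program and its handling of strand are not given in the sources used here.

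The deposited counts were tested here with edgeR 4.0.16 (R 4.3.3), by a quasi-likelihood fit of the 13 libraries with 1 mean per group, TMM factors, and filterByExpr, which kept 17795 of the 44944 genes with a count. A gene was called at a Benjamini-Hochberg adjusted p under 0.05, over all genes tested, and a fold change of at least 2. CPM used TMM-scaled library sizes, RPKM library totals and exonic length, and log2 CPM a prior count of 2. Library totals were 12576174 to 29124022 counts. Each library was 1 mouse, so SEs include the spread between mice beside counting error.

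The 10 members and the other lists were chosen with earlier results of these data known. Named were all members, the called genes of each other list (at most 4 per direction, by size of change), and the 3 genes with the highest correlation to *Nr4a1*, *Egr1*, and *Ier2*. Alternatives were library totals or RLE factors for scaling, DESeq2 1.42.0, no filter, at least 10 counts in every library, a fit of the compared groups alone, the replicate number as a block, and each mouse left out in turn. Labels do not say what a replicate number marks. Same-numbered control and p53mut mice deviated together from their group means (r = 0.302, 0.223, and 0.218, where deviations within a group sum to 0), and no other pair of groups did so for all 3 numbers. A blocked fit of these 6 libraries, and a term for *Xist* class (at least 1000 counts or fewer), were added after the data were seen.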

Additional observations from a re-analysis of the deposited data

How the results depend on the processing

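The cause of the shifts that follow was not tested. The replicate number as a block, which leaves out NPmut mouse 4, gave 1 member called in NPmut against control mice, 1 against NrasG12D, 2 against p53mut, and 1 in the interaction, and 3 AP-1 and 8 other immediate-early genes (7 higher, 1 lower). A fit of the compared groups alone gave 3 members against NrasG12D and 1 against p53mut mice, 2 AP-1 genes, 9 other immediate-early genes, 1 MAP kinase phosphatase, and 2 heat shock genes. Without a filter on low counts, 3 members were called against p53mut mice, 1 in the interaction, and 2 AP-1 genes. In NPmut against control mice, 441 of 17673 genes tested were called higher with the block and 305 of 17133 with the compared groups alone. Without a filter 542 of 44944 were called higher, beside 413 of 17795 in the main fit. For the other comparisons the calls over all genes were not counted in these fits. DESeq2 called 3 members in the interaction and 2 heat shock genes, library totals gave 1 MAP kinase phosphatase, and *Xist* class as a term gave 3 AP-1 genes. With single mice left out, the members called ranged from 1 to 8 against control, 2 to 8 against NrasG12D, 1 to 8 against p53mut mice, and 0 to 5 in the interaction, and stayed at 0 for each single mutant against control. The share of all genes called with a mouse left out was counted only for NPmut against control mice. Called genes of the other lists ranged from 2 to 8 (AP-1), 4 to 22 (other immediate-early), 1 to 4 (MAP kinase phosphatases), and 0 to 1 (heat shock).

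No called member changed sign under these alternatives. The log2 fold changes that did were not called. In p53mut against control mice, *Nr4a1* was at -0.0784 with the block and -0.00394 with the block on control and p53mut mice alone, which called 0 members. *Nr4a3* was at -0.0169 with library totals, -0.000145 with at least 10 counts, and -0.00504 with the block, and *Dusp1* at -0.00175 with the block. *Ier3* was at -0.0284 with library totals, -0.0114 with at least 10 counts, -0.00233 with the compared groups alone, -0.00833 with the block, -0.0462 with the block on both groups alone, and -0.00606 with the *Xist* term. In NrasG12D against control mice the *Xist* term gave 0.0218 for *Nr4a1* and 0.0579 for *Nr4a3*, and no filter gave 0.00148 for *Ier2*. For *Ier5* in NPmut against NrasG12D mice, library totals gave -0.00853.

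With single mice left out, log2 fold changes in p53mut against control mice ranged from -0.717 to 0.541 for *Nr4a1*, -0.150 to 0.0579 for *Nr4a2*, -0.141 to 0.331 for *Nr4a3*, -1.06 to 0.604 for *Egr2*, -0.595 to 0.795 for *Egr3*, -0.291 to 0.0379 for *Ier2*, -0.293 to 0.219 for *Ier3*, and -0.249 to 0.272 for *Dusp1*. In NrasG12D against control mice they ranged from -0.306 to 0.189 for *Nr4a1*, -0.508 to 0.273 for *Nr4a3*, and -0.0902 to 0.0646 for *Ier2*, and *Ier5* ranged from -0.0767 to 0.251 in NPmut against NrasG12D mice. *Egr3* did not pass the filter without NPmut mouse 1, 2, or 4.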

Other observations

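Single mice also stood apart within the groups where no member was called. Of the 3 p53mut mice, mouse 2 was highest for 8 of the 10 genes and lowest for 0, where it was highest for 32.4% and lowest for 35.9% of all genes tested. Of the 3 NrasG12D mice, mouse 3 was lowest for 7 of the 10 genes, where it was lowest for 30.8% of all genes tested. Among control mice no mouse was highest for more than 5 of the genes, mice 1, 2, and 3 being highest for 2, 5, and 3.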
